A study of Citrus sinensis with 4 samples.

Results

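Cs1g16150 is a single gene of sweet orange (Citrus sinensis), followed here as a P-type proton pump gene through the fruit endocarp of 2 cultivars at 2 stages. It was chosen by its identifier, as 1 of the 29036 genes listed in the tables, with its level in these libraries already known, so its own values are a description and carry no test. The groups were Dahongtiancheng at 70 days after full bloom, Bingtangcheng at 70 days, Dahongtiancheng at 50 days and Bingtangcheng at 50 days, each represented by 1 library of poly(A)-selected RNA. No treatment or introduced allele is named for any group, and the labels do not say how many fruits or trees went into a library. The endocarp is the innermost fruit wall, and in citrus it gives rise to the juice sacs. A ratio between 2 libraries holds whatever else differed between them, and fewer cells expressing a gene cannot be told apart from less RNA per cell.

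P-type proton pumps are membrane proteins that hydrolyse ATP and take up its phosphate for a moment while they carry a proton across the membrane. Those of the plasma membrane push protons out of the plant cell, and in petunia petals related pumps at the vacuole acidify the cell sap. In citrus fruit the vacuoles of the juice sac cells hold the acid of the juice, mainly citric acid, and the proton pumps of this membrane are studied for that reason. Bingtangcheng is grown as a sweet orange of low acidity. The tables pair Cs1g16150 with no description, and none of their identifiers matched the 29331 genes of the reference table supplied for naming. The name as a proton pump was therefore not checked against a sequence, and other proton pump genes, or markers of peel, seed or vascular tissue, were not picked out.

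The tables place Cs1g16150 on chromosome 1, from 19246312 to 19254259 on the plus strand, in a genome build not given in the sources used here. Its interval spans 7948 bases, and the gene length listed for it is 3421 bases. No other listed gene model overlaps it. The use of strand in the counting and the handling of near-identical gene copies are likewise not stated there, so fragments of such a copy, if there is one, could not be separated.

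The libraries held between 14040916 and 16445383 fragments over all genes, and the limit allowed by a count of 0, which is 3 fragments, came to between 0.173 and 0.201 CPM. CPM here means fragments scaled to a common library size after TMM scaling, which brings the libraries together on the bulk of their genes. Intervals and floors cover counting error only, since the fragments carry no molecular identifiers and may be copies of 1 molecule.

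Cs1g16150 was counted in every library, and the 4 libraries fell into 3 tiers. It had 24911 fragments in Dahongtiancheng at 70 days, 3955 in Bingtangcheng at 70 days, 3707 in Dahongtiancheng at 50 days and 250 in Bingtangcheng at 50 days. On the CPM scale its level was 1660 in Dahongtiancheng at 70 days (95% exact Poisson interval 1639 to 1680), 264 in Bingtangcheng at 70 days (256 to 273), 213 in Dahongtiancheng at 50 days (207 to 220) and 16.0 in Bingtangcheng at 50 days (14.1 to 18.2). The 70-day Dahongtiancheng library thus stood far above the other libraries, the 50-day Bingtangcheng library far below them, and the later stage of Bingtangcheng lay close to the earlier stage of Dahongtiancheng.

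**Figure D1:**
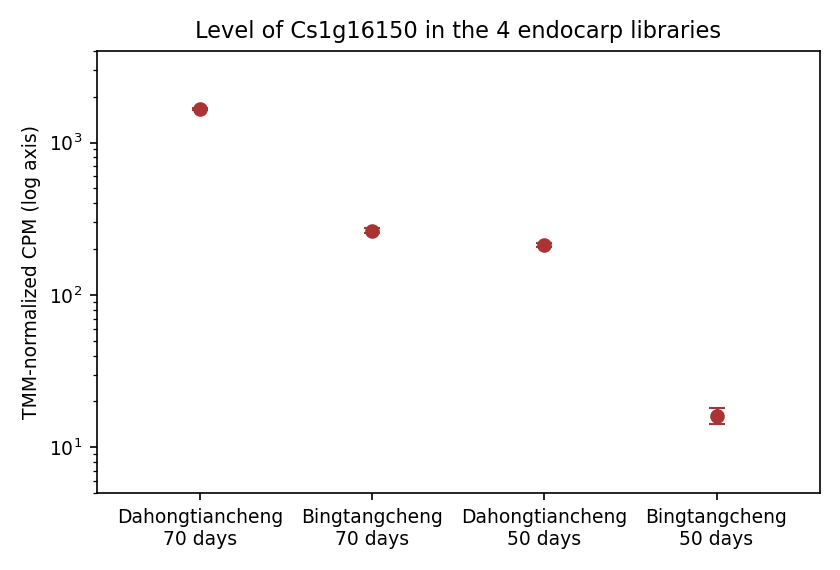
Level of Cs1g16150 in each of the 4 endocarp libraries as TMM-normalized CPM on a log axis, with 1 point per library and bars for the 95% exact Poisson counting interval, which is smaller than the point in most cases. The point of Dahongtiancheng at 70 days lies at 1660 CPM, those of Bingtangcheng at 70 days and Dahongtiancheng at 50 days at 264 and 213, and that of Bingtangcheng at 50 days at 16.0.

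As a share of all counted fragments, the gene took 0.154% in Dahongtiancheng at 70 days (95% exact Clopper-Pearson interval 0.152 to 0.156), 0.0240% in Bingtangcheng at 70 days (0.0233 to 0.0248), 0.0228% in Dahongtiancheng at 50 days (0.0221 to 0.0236) and 0.00178% in Bingtangcheng at 50 days (0.00157 to 0.00202). These shares need no scaling factor, and they fall in the same order. The 2 middle libraries were the only neighbours in this order that lay near each other. Bingtangcheng at 70 days was 1.24-fold above Dahongtiancheng at 50 days on the TMM scale (95% counting interval 1.18 to 1.30) and 1.05-fold above it when only the library sums were used (1.01 to 1.10). With 1 library each, it cannot be said whether that pair differs beyond the spread between fruits.

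Per kilobase of listed length, the unit in which genes can be compared with each other, Cs1g16150 stood near the top of the expressed genes in 70-day Dahongtiancheng and below their middle in 50-day Bingtangcheng. Expressed genes are the 16692 that reach both 10 fragments and 1 CPM in some library. Its level was 485 CPM per kilobase in Dahongtiancheng at 70 days, 38.0 times the median of the expressed genes in that library, where it stood at rank 194. In Bingtangcheng at 70 days it had 77.3 CPM per kilobase, 6.10 times the median and rank 1701. In Dahongtiancheng at 50 days it had 62.4 CPM per kilobase, 4.69 times the median and rank 1995. In Bingtangcheng at 50 days it had 4.69 CPM per kilobase, 0.348 times the median and rank 12418. Among the 194 genes at or above rank 194 in 70-day Dahongtiancheng, 0 had a lower level per kilobase than Cs1g16150 in 50-day Bingtangcheng, counting error aside. The median rank of the 194 there was 150. The authors' deposited FPKM values, a level per kilobase and library size, were 496 in 70-day Dahongtiancheng, 77.9 in 70-day Bingtangcheng, 63.0 in 50-day Dahongtiancheng and 4.61 in 50-day Bingtangcheng.

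Between the stages, the level of Cs1g16150 was higher at 70 days in both cultivars. In Dahongtiancheng it was 1660 CPM at 70 days and 213 CPM at 50 days, a 7.78-fold difference (95% exact conditional counting interval 7.51 to 8.05). In Bingtangcheng it was 264 CPM at 70 days and 16.0 CPM at 50 days, a 16.5-fold difference (14.5 to 18.8). A larger log2 ratio was found for 283 of the 16211 genes expressed in the Dahongtiancheng pair and for 66 of the 16199 expressed in the Bingtangcheng pair. Among genes averaging at least 100 CPM over the pair, whose ratios have little counting error, 31 of 2371 in Dahongtiancheng and 9 of 2406 in Bingtangcheng had a larger one.

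Between the cultivars, the level was higher in Dahongtiancheng at both stages. At 70 days it was 1660 CPM in Dahongtiancheng and 264 CPM in Bingtangcheng, a 6.28-fold difference (95% counting interval 6.07 to 6.49). At 50 days it was 213 CPM in Dahongtiancheng and 16.0 CPM in Bingtangcheng, a 13.3-fold difference (11.7 to 15.2). Of the expressed genes, 334 of 15895 had a larger log2 ratio at 70 days and 52 of 16139 at 50 days. Among genes averaging at least 100 CPM over the pair, 15 of 2487 had a larger one at 70 days, and 1 of 2258 at 50 days. These comparisons share libraries, since each library enters a stage ratio and a cultivar ratio, so the 4 folds are not separate pieces of evidence.

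**Figure D2:**
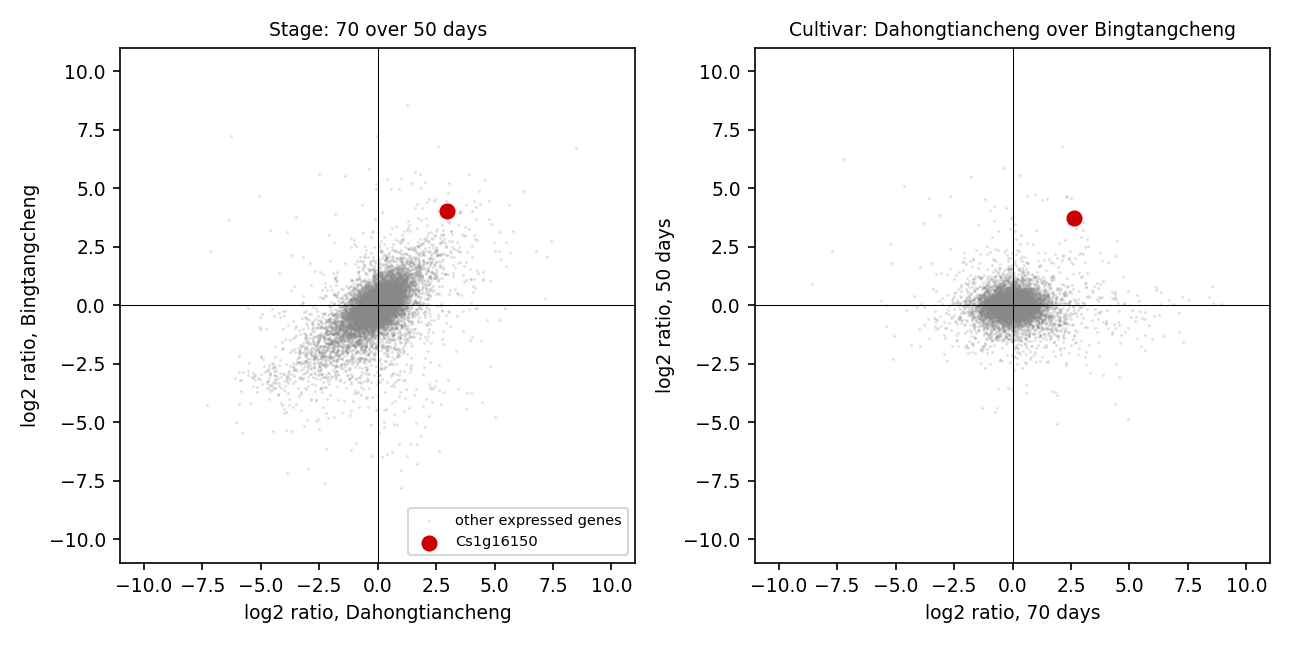
Log2 ratios of TMM-normalized CPM (prior count 2) for the genes expressed in all 4 comparisons, with 1 grey point per gene and Cs1g16150 in red. The left panel sets the 70 over 50 day ratio in Bingtangcheng against that in Dahongtiancheng, where Cs1g16150 lies at 4.03 and 2.96, and the right panel sets the Dahongtiancheng over Bingtangcheng ratio at 50 days against that at 70 days, where it lies at 3.72 and 2.65.

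The fold between stages in Dahongtiancheng was 0.472 times that in Bingtangcheng (95% normal interval on the log scale from the 4 counts 0.414 to 0.539), and the fold between cultivars at 70 days stands to that at 50 days in the same proportion. A ratio of ratios this far from 1 in either direction was found for 2778 of the 16692 expressed genes, or 16.6%. The smallest of the 4 counts behind it is the 250 fragments of the 50-day Bingtangcheng library. With 1 library per group a difference between the cultivars in their stage fold and variation among libraries cannot be told apart. From the lowest to the highest library the level of Cs1g16150 spanned 103-fold. Of the 2385 genes averaging at least 100 CPM over the 4 libraries, 8 spanned a wider range, and the median span of these genes was 1.57-fold.

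The scaling of the libraries moved the stage ratios and left the cultivar ratios nearly as they were. With library sums as the only scaling, the median log2 ratio over the expressed genes was -0.20 between stages in Dahongtiancheng and -0.30 in Bingtangcheng, against 0.0015 and -0.012 with TMM. Cs1g16150 was then 6.75-fold higher at 70 than at 50 days in Dahongtiancheng (6.52 to 6.98) and 13.5-fold in Bingtangcheng (11.9 to 15.4). Its log2 ratio stood 2.95 above the median of all genes in Dahongtiancheng and 4.04 above it in Bingtangcheng under library sums, and 2.96 and 4.04 above it under TMM. Between the cultivars it was 6.40-fold higher at 70 days and 12.8-fold higher at 50 days in Dahongtiancheng with library sums.

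A size rule was used to set other genes beside Cs1g16150. It asked for at least 10 fragments and 1 CPM in 1 of the 2 libraries, at least a 2-fold ratio and a 99% counting interval that excluded 1. Cs1g16150 met it as higher in all 4 comparisons, where the share of expressed genes called higher was 9.57% for 70 over 50 days in Dahongtiancheng, 7.94% in Bingtangcheng, 7.21% for Dahongtiancheng over Bingtangcheng at 70 days and 2.73% at 50 days. By this rule 648 genes, Cs1g16150 among them, had the higher level at 70 days in each cultivar, and 122, again with Cs1g16150, had the higher level in Dahongtiancheng at each stage. Both at once held for 36 genes, 0.237% of the 15175 expressed in every comparison, while 21 genes were lower in all 4. Among the 36 genes the level per kilobase of Cs1g16150 in 70-day Dahongtiancheng was the fourth highest. The 36 genes had a median of 57.9 CPM in Dahongtiancheng and 8.62 CPM in Bingtangcheng at 70 days, and of 7.57 CPM in Dahongtiancheng and 1.41 CPM in Bingtangcheng at 50 days. Their lowest and highest levels were 4.40 and 1660 CPM in 70-day Dahongtiancheng and 0 and 45.8 CPM in 50-day Bingtangcheng. Of the 36, 5 lie on chromosome 1, against 1645 of all 16692 expressed genes.

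The genes most like Cs1g16150 were sought by the root mean square difference between log2 CPM profiles over the 4 libraries, each profile centred on its own mean. Over the 16691 other expressed genes the median difference was 2.40, and 6 genes lay within 0.5. The closest was Cs9g03070 (chromosome 9, 1431269 to 1432534, minus strand) at 0.18. It had 839 fragments in 70-day Dahongtiancheng, 127 in 70-day Bingtangcheng, 118 in 50-day Dahongtiancheng and 9 in 50-day Bingtangcheng. Its folds were 8.23 (95% counting interval 6.78 to 10.1) between stages in Dahongtiancheng and 14.7 (7.50 to 32.9) in Bingtangcheng, and 6.58 (5.46 to 8.0) between cultivars at 70 days and 11.8 (5.99 to 26.4) at 50 days. Its level per kilobase was lower throughout, with Cs1g16150 standing 9.79-fold above it in 70-day Dahongtiancheng, 10.3-fold in 70-day Bingtangcheng, 10.4-fold in 50-day Dahongtiancheng and 9.16-fold in 50-day Bingtangcheng.

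Next came Citrus_newGene_78 (chromosome 1, 12952874 to 12953845, minus strand) at 0.31. It had 239 fragments in 70-day Dahongtiancheng, 40 in 70-day Bingtangcheng, 51 in 50-day Dahongtiancheng and 0 in 50-day Bingtangcheng. Against that 0, entered as 3 fragments in the library, it was 13.9-fold higher at 70 than at 50 days in Bingtangcheng. At 50 days it was 15.2-fold higher in Dahongtiancheng than in Bingtangcheng. The lower ends of the 95% counting intervals of these folds were 10.8 and 12.0, with no upper end. The place of this gene in the order depends on the prior count. Cs9g17580 (chromosome 9, 16844715 to 16847093, minus strand) followed at 0.34, with 592 fragments in 70-day Dahongtiancheng, 86 in 70-day Bingtangcheng, 119 in 50-day Dahongtiancheng and 8 in 50-day Bingtangcheng.

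Cs2g04770 (chromosome 2, 2457864 to 2460101, minus strand), at 0.35, had a higher level per kilobase than Cs1g16150 in every library. In 50-day Bingtangcheng the levels, 4.87 and 4.69 CPM per kilobase from 140 and 250 fragments, lay too close to be ordered. It had 15449 fragments in 70-day Dahongtiancheng, 3151 in 70-day Bingtangcheng, 3940 in 50-day Dahongtiancheng and 140 in 50-day Bingtangcheng. Per kilobase, Cs1g16150 stood at 0.870 times the level of Cs2g04770 in Dahongtiancheng and 0.677 times in Bingtangcheng at 70 days, and at 0.507 times in Dahongtiancheng and 0.963 times in Bingtangcheng at 50 days. Both genes were thus lowest in 50-day Bingtangcheng and highest in 70-day Dahongtiancheng, but the stage fold in Bingtangcheng was 23.4 (19.8 to 28.0) for Cs2g04770, against 16.5 (14.5 to 18.8) for Cs1g16150. Cs1g26060 (chromosome 1, 28213277 to 28214882, minus strand), at 0.36, had 4106 fragments in 70-day Dahongtiancheng, 802 in 70-day Bingtangcheng, 1093 in 50-day Dahongtiancheng and 37 in 50-day Bingtangcheng. Per kilobase, Cs1g16150 stood 1.84-fold above Cs1g26060 in 70-day Dahongtiancheng, 1.5-fold in 70-day Bingtangcheng, 1.03-fold in 50-day Dahongtiancheng and 2.05-fold in 50-day Bingtangcheng. The tables give none of these genes a description. Of the 10 closest genes, 9 met the size rule as higher in all 4 comparisons, against 0.237% of all genes, a count that their choice by profile over the same libraries largely fixes. On chromosome 1 lie 3 of the 10, against 1645 of all 16692 expressed genes. The 4 libraries fix a pattern only loosely, and 72 genes had a Pearson correlation above 0.99 with Cs1g16150.

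**Figure D3:**
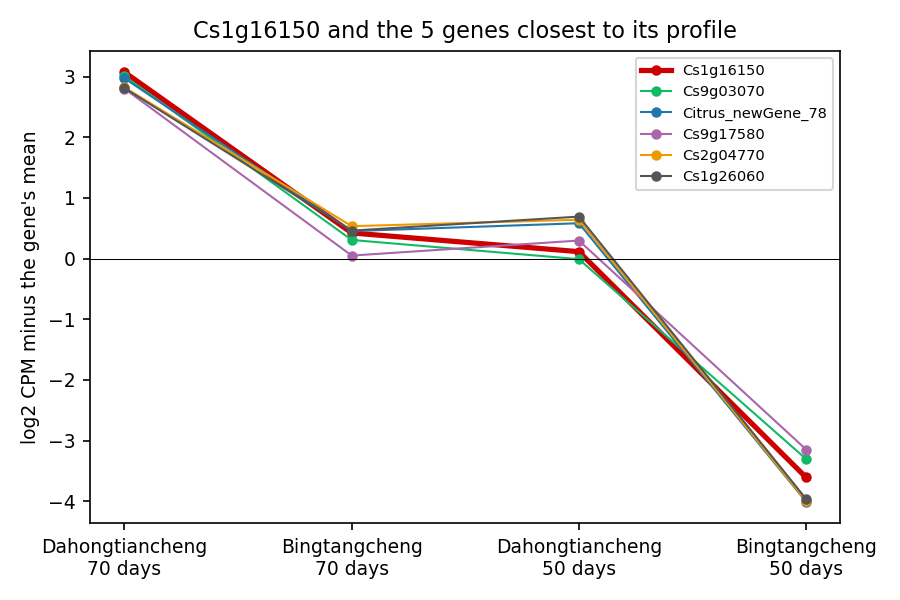
Profiles of Cs1g16150 (thick red line) and of the 5 genes closest to it, as log2 CPM (prior count 2) minus the mean of each gene over the 4 libraries, with 1 point per gene and library. Each of the 6 lines is highest in 70-day Dahongtiancheng, lowest in 50-day Bingtangcheng, and between -0.0094 and 0.69 in the other 2 libraries.

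On chromosome 1, where 1645 of 2650 listed genes were expressed, Cs1g16150 stands at the edge of a stretch with almost no fragments. The nearest expressed gene on its left ends 119420 bases away. The tables list 11 gene models in that stretch, 9 of them on the plus strand like Cs1g16150, and 9 of the 11 had 0 fragments in all libraries. All 11 together had 15 fragments in 70-day Dahongtiancheng, 3 in 70-day Bingtangcheng, 11 in 50-day Dahongtiancheng and 0 in 50-day Bingtangcheng. The model next to Cs1g16150, Cs1g16140, ends 1084 bases before it and had 8 fragments in 70-day Dahongtiancheng, 1 in 70-day Bingtangcheng, 5 in 50-day Dahongtiancheng and 0 in 50-day Bingtangcheng, too few for a ratio. It is named here after its values were seen. On the right there is no such stretch, and the next gene starts 892 bases after the end of Cs1g16150.

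The 20 nearest expressed neighbours, 10 on each side, were chosen by position among genes that reach 10 fragments and 1 CPM in some library. Of these, 0 met the size rule as higher in all 4 comparisons like Cs1g16150, against 0.237% of all genes expressed in every comparison. A count of 0 among 20 is near that share and is no trait of the neighbours. No share of all genes is given for the 10 of 20 that met the size rule in none of the comparisons. Between stages 7 of 20 met it in Dahongtiancheng, 2 higher and 5 lower at 70 days, against 22.2% of all expressed genes in either direction, 9.57% higher and 12.6% lower. In Bingtangcheng 5 of 20 met it, 1 higher and 4 lower at 70 days, against 21.1% in either direction, 7.94% higher and 13.2% lower. Between cultivars 8 of 20 met it at 70 days, 4 higher and 4 lower in Dahongtiancheng, against 12.8% in either direction, 7.21% higher and 5.64% lower. At 50 days 3 of 20 met it, 2 higher and 1 lower in Dahongtiancheng, against 6.35% in either direction, 2.73% higher and 3.62% lower. The shares among the neighbours are 35%, 25%, 40% and 15% in the order given, and with 1 library per group their difference from all genes was not tested. Among those counted as higher between stages in Dahongtiancheng and between cultivars at 70 days is Cs1g15930 (19022404 to 19023631, minus strand), named after its values were seen. It had 18 fragments in 70-day Dahongtiancheng, 0 in 70-day Bingtangcheng, 0 in 50-day Dahongtiancheng and 1 in 50-day Bingtangcheng, so that it counts as expressed through the library where it was high. Dropping the floor on fragments and CPM also changes which genes are the nearest. Between stages 5 of 20 then met the rule in Dahongtiancheng, 1 higher and 4 lower at 70 days. In Bingtangcheng 4 of 20 did, 1 higher and 3 lower. Between cultivars 6 of 20 did at 70 days, 3 higher and 3 lower in Dahongtiancheng. At 50 days 2 of 20 did, 2 higher and 0 lower. The share of all genes without the floor is not given, so these counts have no background to be set against. With 20 neighbours on each side, 13 of 40 met it between stages in Dahongtiancheng and 10 of 40 in Bingtangcheng, and 9 of 40 between cultivars at 70 days and 4 of 40 at 50 days. At a fold threshold of 4, 4 of 20 met it between stages in Dahongtiancheng and 5 of 20 in Bingtangcheng, against 9.2% and 8.84% of all expressed genes. Between cultivars 3 of 20 then met it at 70 days and 2 of 20 at 50 days, against 4.49% and 1.96%. The median log2 ratio of the 20 neighbours was 0.049 between stages in Dahongtiancheng and -0.011 in Bingtangcheng, and 0.022 between cultivars at 70 days and -0.090 at 50 days, close to the medians of all expressed genes at 0.0015, -0.012, -0.016 and 0.00012. The log2 ratios of Cs1g16150 in the same order were 2.96, 4.03, 2.65 and 3.72. On this scale, with the prior count of 2, they were exceeded by 2, 1, 1 and 0 of the 20 neighbours. Of all expressed genes, 283 of 16211, 66 of 16199, 334 of 15895 and 52 of 16139 exceeded them. With counts of 0 entered as 3 fragments instead, 1, 1, 0 and 0 of the 20 neighbours did. With its 0 entered as 3 fragments, Cs1g15930 was 6.94-fold higher at 70 than at 50 days in Dahongtiancheng. At 70 days it was 5.98-fold higher in Dahongtiancheng than in Bingtangcheng. These are lower bounds below the folds of Cs1g16150, so the order of the pair is not determined there.

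**Figure D4:**
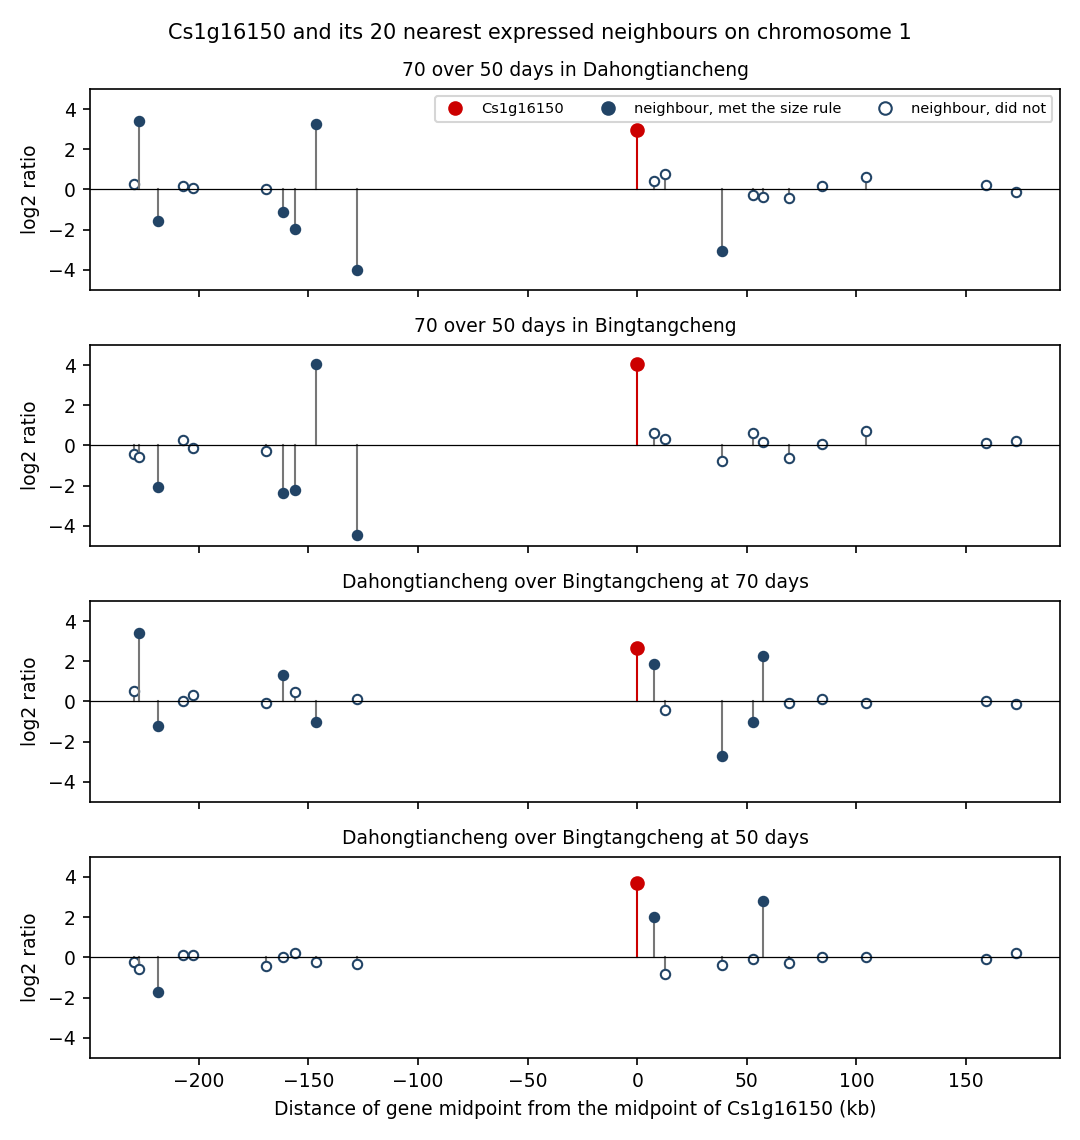
Log2 ratios (TMM-normalized CPM, prior count 2) of Cs1g16150 in red and of its 20 nearest expressed neighbours on chromosome 1 in blue, by distance of the gene midpoints in kb, with 1 panel per comparison. Filled points met the size rule, and Cs1g16150 is filled and above 0 in every panel. The same holds for 0 of the 20 neighbours, near the 0.237% of all genes expressed in every comparison.

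Per kilobase, Cs1g16150 was the highest of these 21 genes in 70-day Dahongtiancheng, where 0 of the 20 neighbours lay above it, against 2 of 20 in 70-day Bingtangcheng. At 50 days 4 of 20 lay above it in Dahongtiancheng and 14 of 20 in Bingtangcheng. Of all 16692 expressed genes, 98.8% lay below Cs1g16150 in 70-day Dahongtiancheng and 89.8% in 70-day Bingtangcheng. At 50 days 88.0% lay below it in Dahongtiancheng and 25.6% in Bingtangcheng. The counts among the 20 are near these shares and are no trait of the neighbours.

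The gene beside it on the right, Cs1g16160 (19255152 to 19260613, plus strand), differed between the cultivars in the same direction as Cs1g16150 and met the size rule between stages in neither cultivar. It had 116 fragments in 70-day Dahongtiancheng, 30 in 70-day Bingtangcheng, 98 in 50-day Dahongtiancheng and 20 in 50-day Bingtangcheng. It was 3.85-fold higher in Dahongtiancheng at 70 days (95% counting interval 2.56 to 5.97) and 4.39-fold at 50 days (2.70 to 7.51), which met the size rule at both stages. Between stages its ratio was 1.37 in Dahongtiancheng (1.04 to 1.81) and 1.56 in Bingtangcheng (0.858 to 2.90). Per kilobase, Cs1g16150 stood 150-fold above Cs1g16160 in 70-day Dahongtiancheng, 92.3-fold in 70-day Bingtangcheng, 26.5-fold in 50-day Dahongtiancheng and 8.75-fold in 50-day Bingtangcheng. These ratios are taken within a library and depend on no scaling.

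Cs1g16170 (19261376 to 19264414, minus strand), the next gene, met the size rule in none of the comparisons, with 559 fragments in 70-day Dahongtiancheng, 740 in 70-day Bingtangcheng, 377 in 50-day Dahongtiancheng and 610 in 50-day Bingtangcheng. Cs1g16180 (19287487 to 19290329, plus strand) had its lowest level in 70-day Dahongtiancheng, the library in which Cs1g16150 was highest. It had 1094 fragments there and 7093 in 70-day Bingtangcheng, and 10758 in Dahongtiancheng and 12555 in Bingtangcheng at 50 days. Its level was 6.51-fold lower in Dahongtiancheng than in Bingtangcheng at 70 days (6.10 to 6.94) and 8.50-fold lower at 70 than at 50 days in Dahongtiancheng (7.98 to 9.05).

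The 3 nearest expressed genes on the left, beyond the stretch with almost no fragments, met the size rule between stages in both cultivars, 1 as higher and 2 as lower at 70 days. Cs1g16030 (19118233 to 19126891, minus strand) had 107 fragments in 70-day Dahongtiancheng, 99 in 70-day Bingtangcheng, 2011 in 50-day Dahongtiancheng and 2293 in 50-day Bingtangcheng. It was 16.2-fold lower at 70 days in Dahongtiancheng (13.4 to 19.9) and 22.2-fold lower in Bingtangcheng (18.2 to 27.5), opposite to Cs1g16150. Cs1g16010 (19101902 to 19105834, minus strand) was higher at 70 days like Cs1g16150, with 141 fragments in 70-day Dahongtiancheng, 288 in 70-day Bingtangcheng, 15 in 50-day Dahongtiancheng and 16 in 50-day Bingtangcheng. Between the cultivars it was 2.05-fold lower in Dahongtiancheng at 70 days (1.67 to 2.52), the other direction from Cs1g16150. Cs1g16000 (19093327 to 19095227, minus strand) was 3.97-fold lower at 70 days in Dahongtiancheng (3.74 to 4.21) and 4.67-fold lower in Bingtangcheng (4.36 to 5.0).

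Another 2 neighbours differed between the cultivars at both stages and are named here after their values were seen. Citrus_newGene_38 (19300910 to 19314105, plus strand) had 112 fragments in 70-day Dahongtiancheng, 22 in 70-day Bingtangcheng, 168 in 50-day Dahongtiancheng and 20 in 50-day Bingtangcheng. It was 5.07-fold higher in Dahongtiancheng at 70 days (3.19 to 8.42) and 7.53-fold at 50 days (4.73 to 12.6), and a gene model on the other strand overlaps it, so its fragments may be shared. Cs1g15940 (19027716 to 19035399, minus strand) was 2.36-fold lower in Dahongtiancheng at 70 days (2.17 to 2.57) and 3.35-fold lower at 50 days (3.21 to 3.50).

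The neighbours, unlike Cs1g16150 itself, were not chosen for their levels and could be tested in a fit that uses the cultivars as replicates of a stage. In edgeR's quasi-likelihood fit with cultivar and stage as additive terms, which leaves 1 residual degree of freedom, 4 of the 20 neighbours differed between stages at an adjusted p of 0.05, against 8.09% of the 16692 genes tested, 3.25% higher and 4.85% lower at 70 days. Cs1g16010 was higher at 70 days (log2 difference 3.83, adjusted p = 0.0131 in edgeR), and Cs1g16030 (-4.25, adjusted p = 0.00962), Cs1g16000 (-2.11, adjusted p = 0.0132) and Cs1g15940 (-1.83, adjusted p = 0.0191) were lower, each in the same direction in both cultivars. DESeq2 with the same terms called 6 of the 19 neighbours to which it gave an adjusted p, against 11.8% of all genes. The stage term of the adjacent gene Cs1g16160 did not pass (log2 difference 0.54, adjusted p = 0.492 in edgeR). Between cultivars 0 of the 20 passed in edgeR, as did 0 of all genes tested. At an unadjusted p under 0.05 there were 5 of 20, against 4.64% of all genes, and DESeq2 with the same terms called 1, Cs1g15940 (adjusted p = 8.73e-05 in DESeq2), against 0.395%. These p-values rest on how far the 4 libraries depart from additive effects of cultivar and stage, with spread estimated partly across genes. They do not measure variation between replicates of a group, since each group has 1 library.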

How the data were processed

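RNA of 4 endocarp libraries was analysed from the authors' tables. Per the file headers, these hold FPKM, scaled counts and raw fragment counts for each gene. Counts were used. The authors' scaled counts (a normalized signal) and the authors' deposited FPKM values served as alternatives only. Aligner, counting tool and genome build: not given in the sources used here. A header line recurring 1 time in each table was skipped. Counts were scaled with TMM factors between 0.910 and 1.11 (edgeR 4.0.16, R 4.3.3), and log2 ratios used a prior count of 2. Ratios carry exact conditional intervals. An additive edgeR quasi-likelihood fit, with Benjamini-Hochberg adjustment over 16692 genes, was read for the neighbours. DESeq2 1.42.0 was the alternative. The scripts were tested on simulated data.

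Cs1g16150, the lists and the size rule were chosen with earlier results of these data known. By rule, the text names Cs1g16150, the 3 nearest expressed genes on each side and the 5 most similar genes.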

Additional observations from a re-analysis of the deposited data

How the results depend on the processing

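Cs1g16150 was higher at 70 days in both cultivars and higher in Dahongtiancheng at both stages under all 6 alternatives tried (library sums, DESeq2 and upper-quartile factors, deposited FPKM, deposited scaled counts and a prior count of 0.5). Under library sums its log2 stage ratio was 2.75 in Dahongtiancheng, against 2.96 with TMM, and 3.75 in Bingtangcheng, against 4.03 with TMM, by the construction of that scaling, and the other values of its 4 ratios and of the ratio of ratios stayed within the counting interval. With 20 neighbours on each side in place of 10, the neighbours meeting the size rule numbered 13 and 10 of 40 between stages in Dahongtiancheng and Bingtangcheng, a share near that of the 20, and 9 and 4 of 40 between cultivars at 70 and 50 days, a share of 22.5% against 40% at 70 days and of 10% against 15% at 50 days. With 5 neighbours on each side, 5 and 4 of 10 met it between stages in Dahongtiancheng and Bingtangcheng, against 22.2% and 21.1% of all expressed genes. Between cultivars 6 and 2 of 10 then met it at 70 and 50 days, against 12.8% and 6.35%. The difference from all genes was not tested. A fold threshold of 4 left 4 of 20 neighbours between stages in Dahongtiancheng, against 9.2% of all genes at that threshold, and 3 of 20 between cultivars at 70 days, against 4.49%. The count between cultivars at 70 days also moved with the scaling, from 8 of 20 to 6 with library sums and 7 with DESeq2 factors. Those lower in Dahongtiancheng fell from 4 to 2 and 3, and those higher stayed at 4. Between stages in Bingtangcheng the count was 6 with library sums, against 5. Ranking by Pearson correlation, which ignores the size of the change, kept 1 of the 10 most similar genes, and the other alternatives kept 8 to 10. The additive fit called 4 or 5 of the 20 neighbours between stages in edgeR, and 6 of 19 in DESeq2, which called 11.8% of all genes against 8.09% in edgeR. No paired analysis was possible because each group has 1 library and the labels give no replicate numbers, apart from the additive fit itself, which compares the stages within each cultivar. Leaving out a library would leave the additive fit no residual degrees of freedom. For Cs1g16150, its 250 fragments in the 50-day Bingtangcheng library largely set the width of each interval that uses that library.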
